A study of Mus musculus with 31 samples.

Results

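The chemokine system of the distal colon was followed in mice with a chemically induced colorectal cancer (CRC), with or without the food-grade titanium dioxide E171. Its members were taken by name: every gene whose array name is Ccl, Ccr, Cxcl or Cxcr followed by a number, and Cx3cl1, Cx3cr1, Xcl1 and Xcr1. The array held 54 such genes on 75 probes, of 24813 genes in all, and 48 of the 54 passed the filter on dim spots and were tested among 19797 genes. All animals, the controls included, were BALB/c mice of 4 to 6 weeks that had received the carcinogen azoxymethane (AOM) once, 1 week before the exposure, and dextran sodium sulfate (DSS), which injures the colon lining, in the drinking water of the first 5 days. The CRC + E171 groups were given E171 by gavage at 5 mg/kg body weight per day and the CRC groups were given water. Colons were taken after 2, 7, 14 and 21 days from 2 males and 2 females per group, with 1 array per animal, and CRC at 21 days had 3 arrays (1 male and 2 females), which makes 31 arrays in 8 groups. The RNA came from whole pieces of distal colon, so that fewer cells of a type and less RNA per cell cannot be told apart.

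Chemokines are small secreted proteins that steer white blood cells along a gradient through G protein-coupled receptors on the cell surface. Inflammatory chemokines are switched on by cytokines and bacterial products and draw neutrophils, monocytes and activated T cells into injured tissue, while homeostatic chemokines hold lymphocytes and dendritic cells in lymphoid follicles and in the mucosa. In the colon, DSS injury is known for a strong wave of the inflammatory kind, and the epithelium itself makes several of the mucosal kind.

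Levels are log2 ratios of a gene's processed signal to its array's 75th percentile, so that 0 lies at that percentile. They cannot be set between genes because each gene has its own probes. Between 67.4 and 78.9% of an array's spots exceeded background clearly (median 72.4%). Some arrays stood apart from their group. The array labelled CRC 14 days male 2 had Xist, the RNA of the inactive X chromosome, at -1.60, within the range of the female arrays (-2.34 to -0.70) and far from the other male arrays (-8.51 to -6.53). Both CRC males of 7 days had little colon epithelium: the summed linear level of 8 epithelial markers was 9.38 and 44.1, against 265 and 293 in the CRC females and 239 to 317 in CRC + E171 of that day. Of the epithelial markers, Epcam was detected on all 31 arrays of the series. Slc26a3 was detected on 30, with a lowest level of -7.59 against a median of 1.75. In the same 2 males the sum of 10 neutrophil markers was 345 and 175, against 56.9 and 62.4 in the CRC females and 52.9 to 75.1 in CRC + E171. Squamous epithelium markers (sum over 5 genes) reached 440 in 1 of these males, and acinar cell markers (5 genes), as in pancreas, reached 349 in the other, against 0.632 to 4.38 and 0.873 to 186 on the other arrays of 7 days. Acinar sums were higher still in CRC + E171 2 days female 2 (1210, against 12.3 to 19.8 in the rest of its group) and CRC + E171 21 days female 2 (1310), and squamous sums reached 231 in CRC + E171 14 days male 2 and 240 in CRC 21 days female 1. Results at 7 days are therefore also given without both CRC males, and results at 14 days without the array labelled CRC male 2 and without CRC + E171 male 2. The arrays named at 2 and 21 days were left out only 1 at a time.

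The first question was whether E171 changed the chemokine system on each day. A member was called when its linear fold change was 1.5 or more and the unadjusted p of the limma test was under 0.05. At 2 days 0 of the 48 members were called higher and 0 lower, against 1.55% and 0.172% of all genes tested. At 7 days 4 members were called higher (8.33%), against 6.93% of all genes, and 13 were called lower (27.1%), against 5.48% of all genes. At 14 days 1 member was called higher, against 3.24% of all genes, and 0 lower, against 3.1%. At 21 days 0 were called higher and 0 lower, against 0.844% and 1.82%. Without CRC 21 days female 1, the array with a squamous sum of 240, 3 members were called lower at 21 days. The share of all genes in that fit is not given. After Benjamini-Hochberg adjustment over all genes 0 members passed on any day in limma, where 0, 19, 1 and 0 had an unadjusted p under 0.05 at 2, 7, 14 and 21 days, and the smallest adjusted p was 0.999, 0.197, 0.59 and 0.889. The median log2 fold change of the members was -0.16, -0.41, -0.37 and -0.29 on the 4 days, against 0.06, -0.01, 0.01 and 0.02 over all genes, with a median SE of 0.63 to 0.68 for a member. Leaving out 1 array moved that median to between -0.49 and 0.12 at 2 days and between -0.57 and -0.01 at 7 days. It moved to between -0.57 and -0.24 at 14 days and between -0.33 and -0.04 at 21 days. The members spread more between animals than most genes: their pooled SD within groups was 0.93 in the median (0.28 to 3.07), against 0.44 over all genes.

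**Figure D1:**
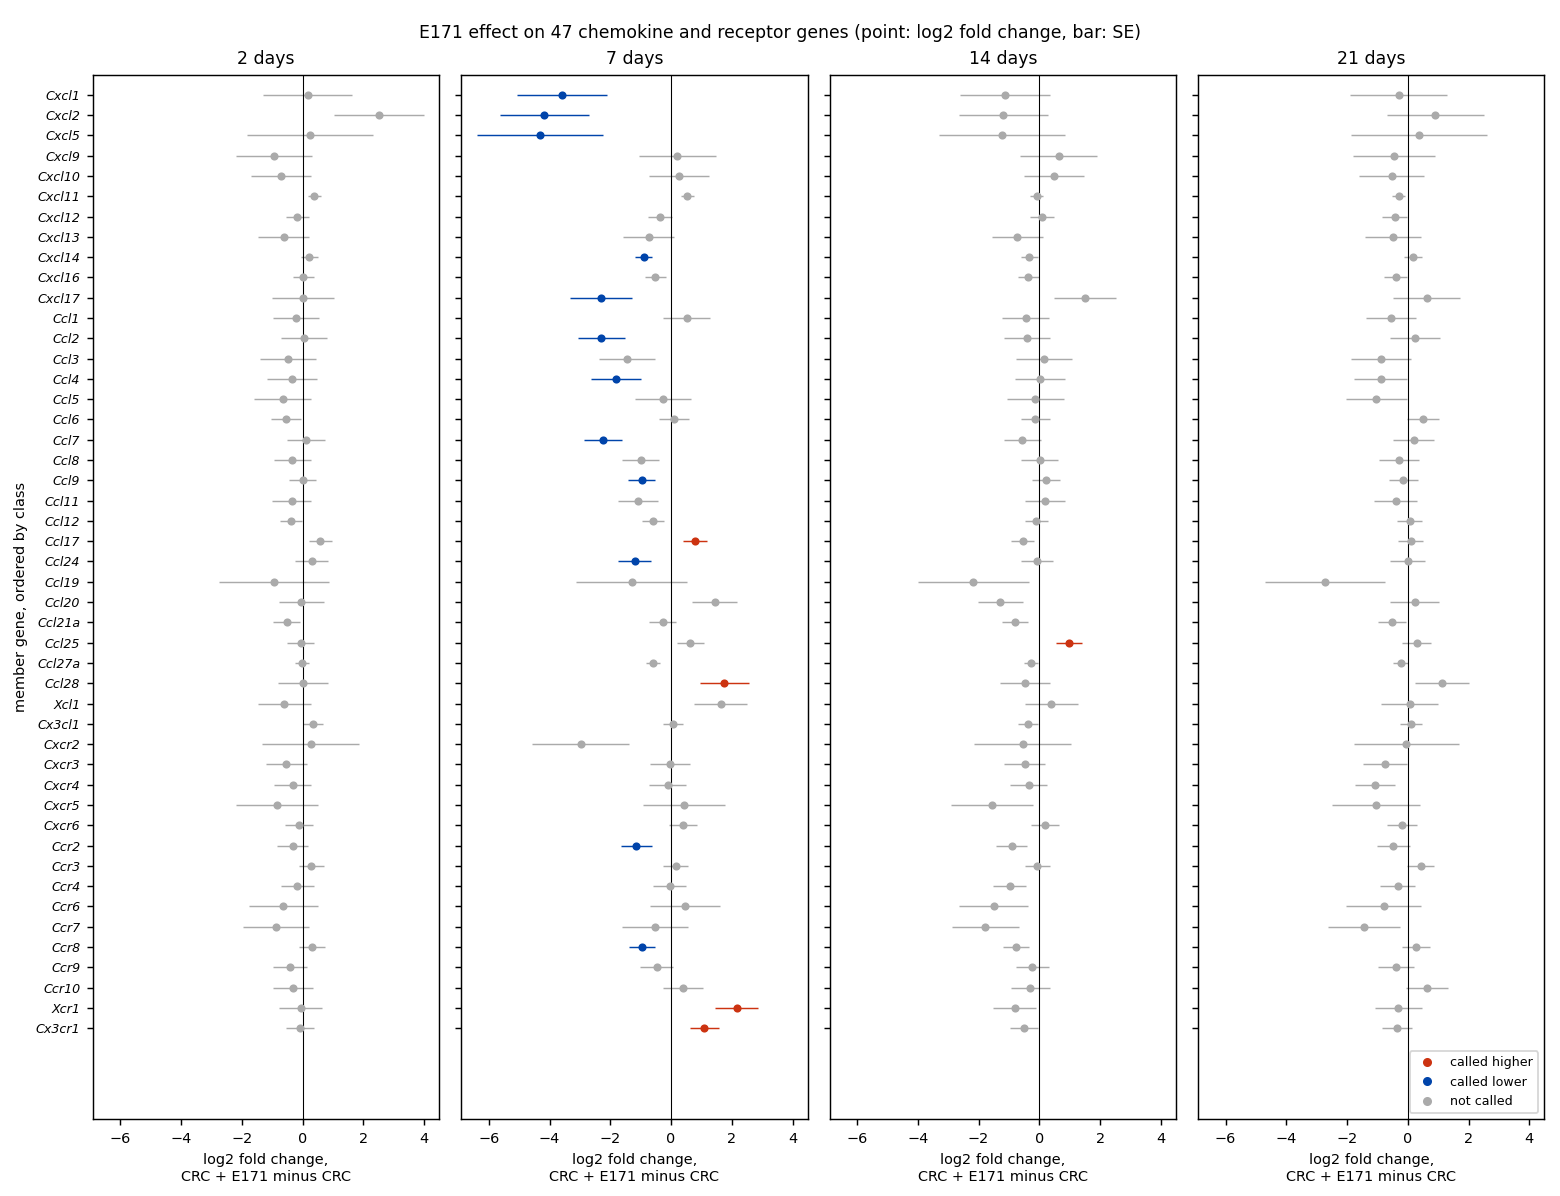
Log2 fold change (CRC + E171 minus CRC, x axis) with its SE for 47 of the 48 members tested (y axis, ordered by class) in 4 panels by day. The coloured points are members called, 4 higher and 12 of the 13 lower at 7 days and 1 higher at 14 days, and the bars of the neutrophil-attracting ligands are among the longest.

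Of the neutrophil-attracting CXC ligands, which act through Cxcr2, 3 of the 3 tested were called lower at 7 days, against 5.48% of all genes. Cxcl1 stood at 3.94 and 5.18 in the males and -4.06 and -4.08 in the females of CRC, and at -3.25 and -2.13 in the males and -3.51 and -4.52 in the females of CRC + E171. Only the CRC males were high, by over 6 log2 units, and the CRC females lay within the range of CRC + E171. The fitted log2 fold change was -3.59 ± 1.47, p = 0.0222, adjusted p = 0.237, and the exact two-sided permutation p over the 8 arrays was 0.371. These p-values measure the spread between single animals, and the smallest exact p is 0.0286, for 4 against 4 as for 4 against 3 arrays. Cxcl2, a close relative of Cxcl1 made early by macrophages and epithelium, was at 0.11 and 0.96 in the males and -7.55 and -7.95 in the females of CRC and at -8.33 and -6.64 in the males and -8.93 and -7.21 in the females of CRC + E171. It was well above background on the 2 CRC male arrays and on none of the other 6, so its difference is a bound. CRC was at least 6.65-fold higher than CRC + E171 (means of the 4 arrays each). For this, CRC + E171 arrays were set at the higher of their own value and the lowest signal well above background. All CRC arrays, the dim females included, were taken as measured. The measured log2 fold change was -4.17 ± 1.47, p = 0.00897, adjusted p = 0.207 (exact permutation p = 0.2). Cxcl5, an epithelial ligand of the same receptor, stood at 4.21 and 5.03 in the males and -5.31 and -4.41 in the females of CRC and at -5.12 and -0.91 in the males and -4.53 and -7.20 in the females of CRC + E171, a difference of -4.32 ± 2.07, p = 0.0473, adjusted p = 0.293 (exact permutation p = 0.257). Again the groups overlapped, and 1 CRC + E171 male was higher than both CRC females.

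Cxcl3, which lies beside Cxcl1 and Cxcl2, did not pass the filter, since it was well above background on 3 of the 31 arrays only. Those were both CRC males of 7 days (0.48 and 1.32) and CRC + E171 14 days male 2 (-1.38). The same 3 arrays held the highest values of Cxcl5 (4.21, 5.03 and 3.92) and Cxcr2 (-0.91, 0.21 and 0.06). Cxcr2, the receptor of these ligands on neutrophils, was at -0.91 and 0.21 in the males and -6.89 and -7.44 in the females of CRC at 7 days and at -8.25 and -2.65 in the males and -7.59 and -8.44 in the females of CRC + E171, detected on 2 and 1 of 4 arrays, and was not called (-2.98 ± 1.60, adjusted p = 0.345). Of the other members that did not pass, Cxcr1 was well above background on 9 arrays, Ccr1 on 8, Ccl22 on 4, and Ccl26 and Cxcl15 on 1 each, and they were not tested.

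Because Cxcl1, Cxcl2 and Cxcl3 all had their highest values in the same 2 CRC males of 7 days, the 250 bases before their start sites are shown, with Cxcl10 as an interferon-induced ligand that did not follow them. The sequences are from RefSeq (GRCm38.p6), 5′ to 3′ on the strand of the gene, and capitals mark a palindromic kappa B motif (GGGAA, any base, then TTCC) and in Cxcl10 also an interferon response motif (GAAA, any pair of bases, then GAAA). Both were searched on both strands, where matches of the kappa B motif may overlap each other. Cxcl1 is at chr5:90890995-90891244, plus strand, Cxcl2 at chr5:90903649-90903898, plus strand, Cxcl3 at chr5:90785851-90786100, plus strand, and Cxcl10 at chr5:92348890-92349139, minus strand.
Cxcl1: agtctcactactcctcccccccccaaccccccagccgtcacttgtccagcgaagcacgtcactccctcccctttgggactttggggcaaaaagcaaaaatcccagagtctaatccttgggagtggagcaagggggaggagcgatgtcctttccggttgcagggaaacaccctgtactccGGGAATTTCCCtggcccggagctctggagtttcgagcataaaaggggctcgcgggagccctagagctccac
Cxcl2: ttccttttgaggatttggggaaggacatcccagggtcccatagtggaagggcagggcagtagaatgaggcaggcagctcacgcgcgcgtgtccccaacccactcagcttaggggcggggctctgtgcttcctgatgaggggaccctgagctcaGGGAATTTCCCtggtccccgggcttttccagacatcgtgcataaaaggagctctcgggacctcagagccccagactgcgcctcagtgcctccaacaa
Cxcl3: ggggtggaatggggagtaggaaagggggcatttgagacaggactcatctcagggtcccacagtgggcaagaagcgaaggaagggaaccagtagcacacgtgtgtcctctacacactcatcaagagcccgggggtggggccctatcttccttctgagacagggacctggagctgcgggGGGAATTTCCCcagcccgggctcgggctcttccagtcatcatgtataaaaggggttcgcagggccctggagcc
Cxcl10: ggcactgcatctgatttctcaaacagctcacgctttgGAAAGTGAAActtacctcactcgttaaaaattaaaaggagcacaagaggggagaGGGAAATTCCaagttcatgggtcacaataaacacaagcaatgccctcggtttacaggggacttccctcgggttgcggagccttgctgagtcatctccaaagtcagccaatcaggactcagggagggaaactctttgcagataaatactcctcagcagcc
In Cxcl1, Cxcl2 and Cxcl3 the match begins at -71, -97 and -73 from the start site and holds the same letters, and in Cxcl10 the kappa B match begins at -159 and the interferon match at -213. The kappa B motif stands in 93 of the 32851 promoter windows of this length (0.283%) and in 6 of the 43 windows of members, which cover 39 of the 54 members. Ccl1 and Ccr3 are among those with a match, and Ccl1 had its lowest value of the series, -7.29, in CRC 7 days male 2. Cxcl5, Ccl2 and Ccl7, also highest in the CRC males of 7 days, are not among those with a match, though not all members had a window. The interferon motif stands in 2.98% of all windows and in 3 of the members' 43. A match describes the window only and says nothing of binding.

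Of the 13 inflammatory CC ligands 5 were called lower at 7 days, against 5.48% of all genes, and 1 higher, against 6.93%. Their median log2 fold change was -0.99. Ccl2, which draws monocytes through Ccr2, stood at 3.0 and 5.31 in the males and 0.18 and 0.12 in the females of CRC and at -0.14 and 0.24 in the males and 0.05 and -0.69 in the females of CRC + E171. The CRC males were above all other arrays of the day, and the CRC females were inside the range of CRC + E171. The log2 fold change was -2.29 ± 0.76, p = 0.00595, adjusted p = 0.2 (exact permutation p = 0.0857). Ccl7, a second ligand of Ccr2 encoded next to Ccl2, was at 2.23 and 3.28 in the males and -0.57 and -0.66 in the females of CRC and at -1.23 and -0.71 in the males and -1.03 and -1.68 in the females of CRC + E171. Here the groups did not overlap, though the lower CRC female and the higher CRC + E171 male nearly met, and the log2 fold change was -2.23 ± 0.62, p = 0.00127, adjusted p = 0.197 (exact permutation p = 0.0286, the smallest that 4 against 4 arrays can give). Over all days Ccl7 in CRC was -0.96, -0.58, 0.18 and 0.45 at 2 days, 2.23, 3.28, -0.57 and -0.66 at 7 days, -0.48, -1.04, -0.85 and -0.80 at 14 days, -1.52, -1.90 and -2.30 at 21 days. In CRC + E171 it was -0.95, -1.03, 0.32 and 1.14 at 2 days, -1.23, -0.71, -1.03 and -1.68 at 7 days, -1.78, -0.63, -1.60 and -1.41 at 14 days, -1.85, -2.25, -1.65 and -1.14 at 21 days. The females of both arms at 2 days and the 2 CRC males at 7 days were the only arrays above 0, and the highest of the 7 arrays at 21 days was at -1.14.

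Ccl4, which draws macrophages and T cells, was at 1.02 and 0.30 in the males and -3.29 and -4.04 in the females of CRC at 7 days and at -3.26 and -2.99 in the males and -3.43 and -3.55 in the females of CRC + E171 (-1.80 ± 0.82, p = 0.0368, adjusted p = 0.273, exact permutation p = 0.371). Its neighbour Ccl3, which draws similar cells, had the same pattern, 0.19 and 0.09 in the males and -5.01 and -5.45 in the females of CRC and -3.05 and -3.59 in the males and -4.64 and -4.71 in the females of CRC + E171, and was not called (-1.45 ± 0.92, adjusted p = 0.43). Ccl9, a myeloid chemokine, was at 3.59 and 3.26 in the males and 0.75 and 0.77 in the females of CRC and at 0.46 and 1.44 in the males and 0.71 and 1.85 in the females of CRC + E171 (-0.97 ± 0.45, p = 0.0387, adjusted p = 0.278, exact permutation p = 0.286). In each of these 3 genes the CRC females lay at or below the CRC + E171 arrays or among them. Ccl24, which draws eosinophils, was at 1.70 and 0.05 in the males and -1.15 and -0.52 in the females of CRC and at -1.30 and -0.76 in the males and -1.48 and -1.14 in the females of CRC + E171 (-1.19 ± 0.54, p = 0.0372, adjusted p = 0.274, exact permutation p = 0.0857). Ccl17, a Ccr4 ligand made by dendritic cells, moved the other way, from -2.64 and -3.12 in the males and -1.87 and -1.69 in the females of CRC to -1.16 and -1.60 in the males and -2.56 and -0.87 in the females of CRC + E171 (0.79 ± 0.38, p = 0.0499, adjusted p = 0.297, exact permutation p = 0.143), and its call was lost under 8 of 9 alternative settings. Apart from Ccl3, the 6 remaining ligands of this class had log2 fold changes from -1.08 (Ccl11) to 0.52 (Ccl1), none called. Ccl12, a mouse ligand of Ccr2, was lower on all CRC + E171 arrays (-0.99 to -0.14) than on all CRC arrays (-0.11 to 0.40) without being called (-0.60 ± 0.37, adjusted p = 0.42). At 7 days 4 members did not overlap in the lower direction, among them Cxcl14, Ccl7 and Ccl12, against 2.03% of all genes, and 0 in the higher direction, against 2.82%.

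**Figure D2:**
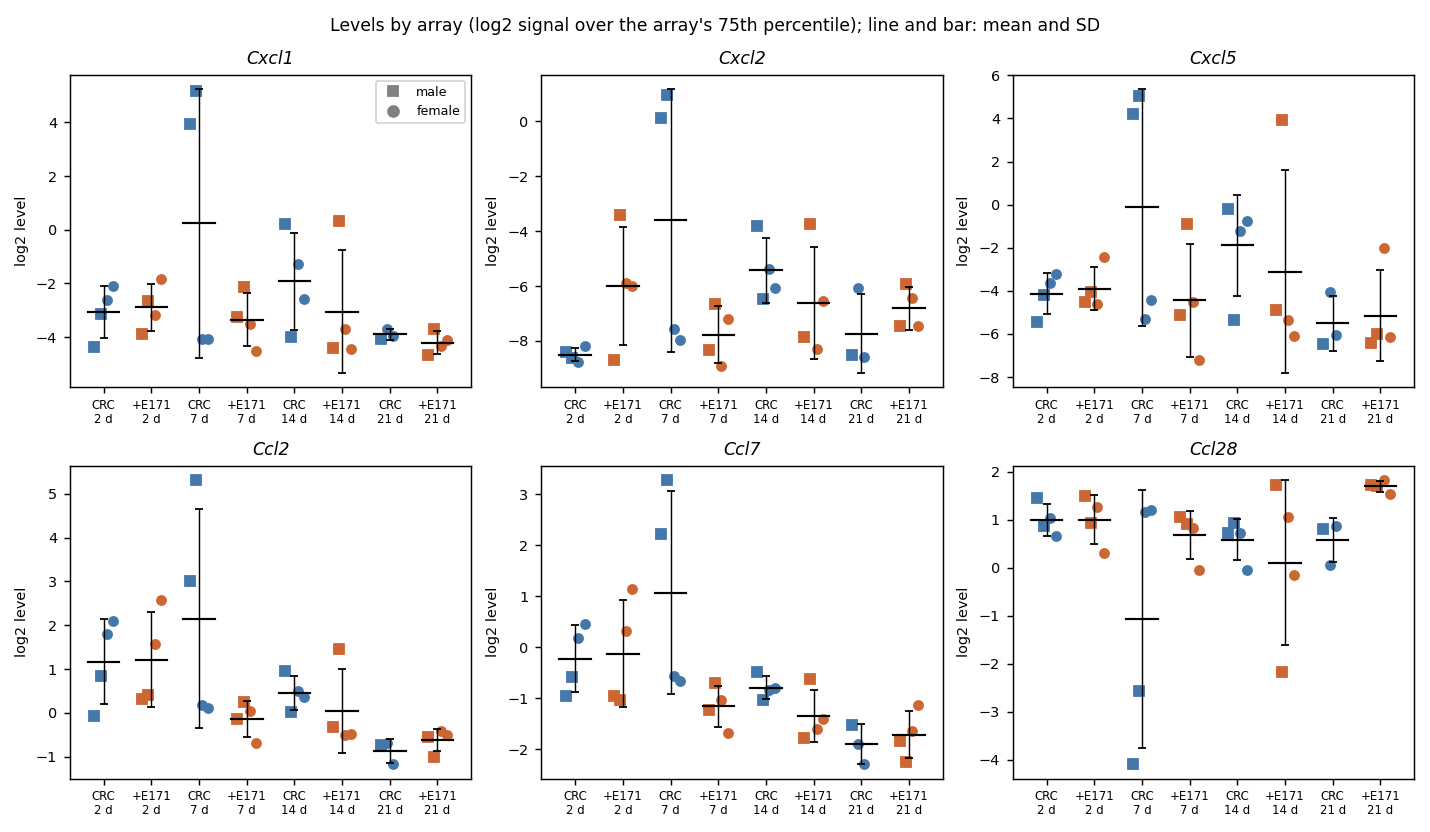
Log2 level over the 75th percentile of the array (y axis) of 5 inflammatory ligands and Ccl28 in each group (x axis, CRC blue and CRC + E171 orange, by day), with squares for males, circles for females and the mean with its SD. At 7 days the 2 CRC males lie apart from the other 6 arrays in all 6 panels, at 3.94 and 5.18 for Cxcl1 and at -4.10 and -2.58 for Ccl28.

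The other CXC ligands had negative log2 fold changes at 7 days in 5 of 5, against 50.8% of all genes, and 2 of them were called lower, against 5.48%. Cxcl14, an epithelial and stromal ligand found in healthy mucosa, was at -0.18 and -1.06 in the males and -1.76 and -1.56 in the females of CRC and at -2.18 and -1.97 in the males and -2.02 and -2.0 in the females of CRC + E171. All 4 CRC arrays were above all CRC + E171 arrays, and the log2 fold change was -0.90 ± 0.28, p = 0.00349, adjusted p = 0.197 (exact permutation p = 0.0286). Its 2 probes gave -1.32 ± 0.46 and -0.48 ± 0.32, and the second was well above background on 13 of 31 arrays. Over all days Cxcl14 was -2.15, -1.92, -2.07 and -1.73 at 2 days, -0.18, -1.06, -1.76 and -1.56 at 7 days, -1.08, -1.82, -0.92 and -1.11 at 14 days, -2.11, -2.55 and -1.83 at 21 days in CRC. In CRC + E171 it was -1.48, -2.08, -1.73 and -1.77 at 2 days, -2.18, -1.97, -2.02 and -2.0 at 7 days, -1.82, -1.0, -1.52 and -1.97 at 14 days, -2.43, -1.73, -2.28 and -1.53 at 21 days. Cxcl17, a mucosal chemokine, was at -3.15 and -4.90 in the males and -7.64 and -3.55 in the females of CRC and at -8.33 and -6.12 in the males and -6.42 and -7.64 in the females of CRC + E171 (-2.32 ± 1.02, p = 0.0321, adjusted p = 0.261, exact permutation p = 0.114), detected on 3 and 1 of the 4 arrays. It passed the filter on dim spots through CRC at 7 days alone, the group where it was high, so that its place among the 13 members called lower supports nothing. Cxcl2 and Cxcr2 likewise passed through 1 group each, CRC at 14 days, and 42 of the 48 members through all 8. The highest Cxcl17 value of the series, -2.03, was that of CRC + E171 14 days male 2, an array with a squamous marker sum of 231.

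The interferon-induced ligands Cxcl9 and Cxcl10, which draw activated T cells and natural killer cells through Cxcr3, did not follow the neutrophil-attracting ones. Cxcl9 stood at -3.73 and 2.24 in the males and 1.09 and 0.37 in the females of CRC and at -0.23 and 0.17 in the males and 1.32 and -0.45 in the females of CRC + E171 at 7 days (0.21 ± 1.26, adjusted p = 0.954). Of the 2 CRC males with high Cxcl1, male 1 thus had the lowest Cxcl9 of the day and male 2 the highest. Cxcl10 was at -4.24 and -0.43 in the males and -1.32 and -1.58 in the females of CRC and at -0.89 and -1.12 in the males and -1.34 and -3.12 in the females of CRC + E171 (0.27 ± 0.99, adjusted p = 0.922). Both genes had their highest values at 2 days, where CRC + E171 2 days female 2 held the highest values of the series (4.23 and 2.45), with the acinar sum of 1210 given above, and CRC 14 days male 2 the lowest (-4.42 and -5.30). Cxcl11 varied least of all members (SD within groups 0.28), and its level is uncertain: bases 16 to 35 of 1 of its probes read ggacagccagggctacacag, a stretch that also stands in other probes (5 of 56605 in all) and in 10 of the 32851 promoter windows, so that signal from other transcripts cannot be told apart.

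Among the homeostatic and mucosal CC ligands, 1 of 6 was called higher at 7 days, against 6.93% of all genes, and 1 at 14 days, against 3.24%. Ccl28, made by colon epithelium to draw plasma cells that secrete immunoglobulin A, was at -4.10 and -2.58 in the males and 1.17 and 1.21 in the females of CRC and at 1.06 and 0.92 in the males and 0.82 and -0.05 in the females of CRC + E171. Both CRC males were far below every other array of the day, and the CRC females were the highest of all. The log2 fold change was 1.76 ± 0.82, p = 0.0408, adjusted p = 0.281 (exact permutation p = 0.429). With its brightest probe alone Ccl28 was not called at 7 days. A similar low value, -2.18, occurred in CRC + E171 14 days male 2, whose epithelial marker sum was 78.1 against 272 to 543 in the other arrays of its group. At 21 days all CRC + E171 arrays (1.54 to 1.83) were above all CRC arrays (0.05 to 0.88), but the limma test did not call it (1.12 ± 0.88, adjusted p = 0.916). That was 1 member without overlap in the higher direction at 21 days, against 4.66% of all genes, beside 1 in the lower direction (Cxcl16), against 3.36%.

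Ccl25, which draws Ccr9-bearing lymphocytes and is known from small intestine and thymus, was called higher at 14 days. It stood at -3.52 and -3.46 in the males and -3.83 and -3.18 in the females of CRC and at -3.13 and -3.90 in the males and -0.54 and -2.52 in the females of CRC + E171 (0.97 ± 0.43, p = 0.0331, adjusted p = 0.59, exact permutation p = 0.257). Of the CRC + E171 arrays 3 of 4 were above all CRC arrays, the male among them only just, and without both females the difference was -0.02 and not called. Female 1 also had the highest epithelial marker sum of the series (543, against 213 to 258 in CRC of that day). Both females had the lowest monocyte and macrophage sums of the series (39.4 and 37.8, against 54.5 to 116 in CRC) and acinar sums of 1.25 and 1.4, against 11.1 to 20.5. The part of these markers in the Ccl25 call was not tested. Its 3 probes agreed in sign, from 0.56 ± 0.42 to 1.26 ± 0.55, at 14 days, but the call was lost with the brightest probe alone. Ccl20, the epithelial ligand of Ccr6, differed by 1.44 ± 0.74, adjusted p = 0.322 at 7 days and -1.29 ± 0.74, adjusted p = 0.681 at 14 days, and was called on neither. Ccl27a, a skin and mucosal ligand of Ccr10, was at -2.73 and -2.76 in the males and -3.68 and -3.72 in the females of CRC and at -3.70 and -3.89 in the males and -3.87 and -3.72 in the females of CRC + E171 at 7 days, a difference just under the fold threshold (-0.58 ± 0.23, adjusted p = 0.23). Copies of Ccl19, Ccl21a and Ccl27a in the mouse genome are nearly identical, so their probes may read more than 1 gene.

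Among the receptors, 3 of 9 CC receptors were called lower at 7 days, against 5.48% of all genes. Both receptors of the other families were called higher, against 6.93%, while 0 of 5 CXC receptors were called. Ccr2, the monocyte receptor of Ccl2 and Ccl7, was at -0.11 and 0.40 in the males and -1.40 and -1.16 in the females of CRC and at -1.74 and -1.34 in the males and -0.99 and -2.81 in the females of CRC + E171 (-1.15 ± 0.51, p = 0.0334, adjusted p = 0.265, exact permutation p = 0.143). The groups overlapped for Ccr2. Ccr8, a receptor of regulatory and skin-homing T cells, was at -2.88 and -3.35 in the males and -4.83 and -3.53 in the females of CRC and at -4.11 and -4.86 in the males and -4.83 and -4.64 in the females of CRC + E171 (-0.96 ± 0.43, p = 0.0342, adjusted p = 0.267, exact permutation p = 0.114). Leaving out any of 6 of the 8 arrays ended the Ccr8 call.

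Xcr1, the receptor of cross-presenting dendritic cells, was called higher with E171 at 7 days. It was at -8.12 and -8.70 in the males and -5.54 and -5.73 in the females of CRC, where it was detected on 1 of 4 arrays, and at -5.97 and -2.95 in the males and -4.79 and -5.76 in the females of CRC + E171, where it was detected on 3. Both CRC males and 1 CRC female were not well above background, so the size of the difference rests partly on dim spots. The log2 fold change was 2.16 ± 0.71, p = 0.00551, adjusted p = 0.2 (exact permutation p = 0.171). Its ligand Xcl1, made by T cells and natural killer cells, was low in the same 2 CRC males, -6.49 and -4.25 in the males and -1.87 and -2.07 in the females of CRC against -2.16 and -2.17 in the males and -1.91 and -1.93 in the females of CRC + E171, and was not called (1.63 ± 0.87, adjusted p = 0.344). Cx3cr1, the receptor of resident macrophages for Cx3cl1, was at -2.97 and -0.06 in the males and 0.51 and 0.48 in the females of CRC and at 0.60 and 0.81 in the males and 0.69 and 0.27 in the females of CRC + E171 (1.10 ± 0.47, p = 0.0259, adjusted p = 0.245, exact permutation p = 0.143). A single CRC male made most of that difference, which was 0.28 and not called without it, and the ligand Cx3cl1 differed by 0.07 ± 0.33, adjusted p = 0.937. With the brightest probe alone the Cx3cr1 call was also lost.

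The 7-day differences were next compared between the sexes, in a limma fit over 16 groups of arm, sex and day. In males 11 members were lower and 5 higher with E171 at an adjusted p under 0.05, against 6.26% and 9.02% of all genes. In females 0 of 48 passed, against 0% of all genes, and 0 had an unadjusted p under 0.05, against 2.45%. The effect itself differed between the sexes at an adjusted p under 0.05 for 9 members, 8 more negative in males, against 0.869% of all genes, and 1 more positive, against 2.84%. At an unadjusted p under 0.05 it did so for 17, against 18.2% of all genes. Cxcl1 changed by -7.24 ± 1.24 in males and 0.06 ± 1.24 in females, a difference of -7.31 ± 1.75 (adjusted p = 0.0295). Cxcl2 was well above background in neither CRC + E171 male and in no female of either group. In males CRC was at least 96.2-fold higher than CRC + E171, with mean levels of 0.54 and -7.48 as measured, and no fold can be given in females. Its measured difference between the sexes, -7.70 ± 2.05 (adjusted p = 0.0456), is therefore set against background. Ccl7 fell in males by 3.72 ± 0.40 on the log2 scale (adjusted p = 5.48e-05), with -0.74 ± 0.40 in females. These values restate what the single arrays show, that the CRC males of 7 days differed from the CRC females of the same day. Ccl11, which draws eosinophils and was not called over both sexes, changed by -2.97 ± 0.59 in males and 0.82 ± 0.59 in females, a difference of -3.79 ± 0.83 (adjusted p = 0.0182). The same held for Ccl3, with -3.45 ± 0.68 and 0.56 ± 0.68. Ccl28 went the other way, 4.33 ± 0.82 in males and -0.81 ± 0.82 in females. With 2 arrays per sex and group, sex and the state of 2 animals cannot be told apart.

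**Figure D3:**
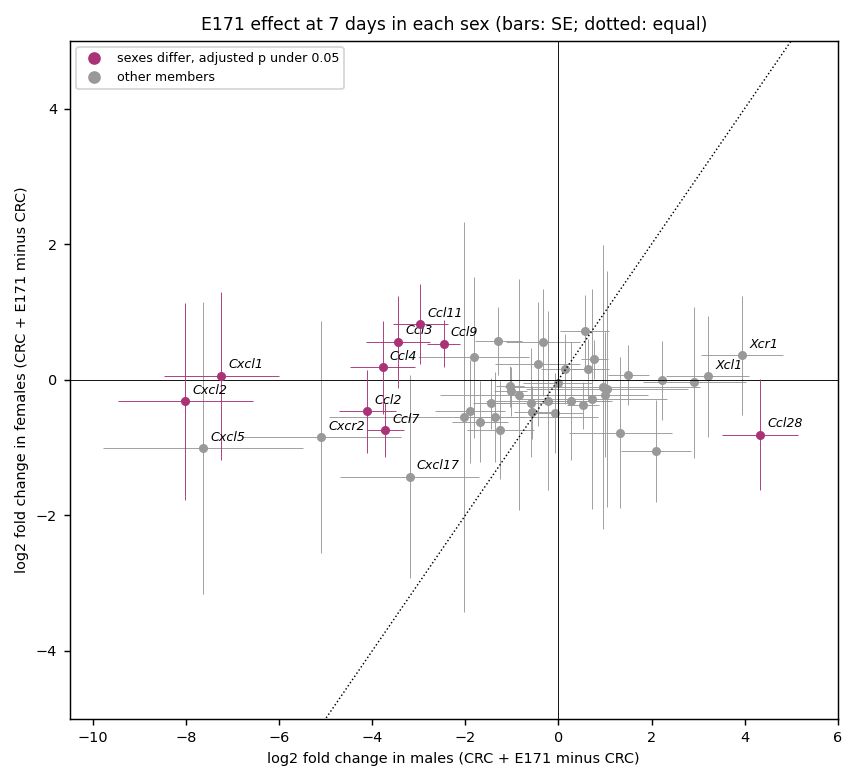
Log2 fold change with E171 at 7 days in males (x axis) against females (y axis) for 47 of the 48 members, with SE bars. The 9 coloured members are those whose effect differed between the sexes at an adjusted p under 0.05, and they spread from -8.02 (Cxcl2, measured against background) to 4.33 in males while staying between -0.81 and 0.82 in females.

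Without both CRC males of 7 days 0 members were called higher and 0 lower, against 1.06% and 1.25% of all genes in the same fit. Cxcl1 then differed by 0.73, Cxcl5 by 0.42, Ccl4 by 0.36, Ccl9 by 0.36 and Ccl28 by -0.50 on the log2 scale, each with the sign turned and none called. Ccl7 kept its sign at -0.55 and Ccl2 at -0.29. Xcr1 was at 0.77 and lost its call, as it did within the scan day that both groups share (1.45). Leaving out a single array, Ccl7 and Xcr1 were called in all 8 fits, Cxcl14 and Ccl2 in 7, Cxcl2 and Cx3cr1 in 6, and Cxcl1 in 5. Cxcl17, Ccl9 and Ccr2 were called in 4 of the 8, Cxcl5, Ccl4, Ccl17, Ccl24 and Ccl28 in 3, and Ccr8 in 2. The markers of some other cells moved with these calls, with the sums given above for the 2 males. At 7 days 5 of 10 neutrophil and 5 of 11 monocyte and macrophage markers were called lower, against 5.48% of all genes. Of the colon epithelium markers 8 of 8 were called higher, against 6.93%. Among the other lists, 2 of 5 acinar and 1 of 6 endothelium markers were lower and 1 of 6 dendritic cell markers higher. Of 9 T cell, 8 B and plasma cell, 5 eosinophil and mast cell, 5 smooth muscle and 5 squamous markers 0 were called. The sum of the monocyte and macrophage markers ran from 96.2 to 145 in CRC and from 42.7 to 169 in CRC + E171. Their part in the chemokine differences was not tested. Each day's groups also lay on different slides and partly on different scan days. Within scan day 1, which held male 1 and female 1 of both groups of 7 days, 2 members were called higher, against 5.25% of all genes, and 3 lower, against 4.42%.

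At 14 days 36 of 48 members had a negative log2 fold change (75%, against 48.5% of all genes), and besides Ccl25 none was called. At 2, 7 and 21 days 31, 30 and 30 members were negative, against 40.8%, 50.8% and 48% of all genes. Of the cell marker lists at 14 days, the median log2 fold change was -1.35 over 5 eosinophil and mast cell markers, -0.94 over 8 B and plasma cell, -0.54 over 9 T cell and -0.44 over 11 monocyte and macrophage markers, with 0 called in each. It was -0.03 over 10 neutrophil, -0.35 over 6 dendritic cell and -0.55 over 5 smooth muscle markers, with 1 called lower in each, against 3.1% of all genes. Over 8 colon epithelium, 6 endothelium, 5 acinar and 5 squamous markers it was -0.11, -0.29, -0.44 and -0.68, with 0 called in each. Their part was not tested. Without the array labelled CRC 14 days male 2, 1 member was called higher, against 2.69% of all genes, and 1 lower, against 3.22%, the median of the members was -0.57, and Ccl25, the member called higher, differed by 0.99. Without CRC + E171 14 days male 2, 1 member was called higher, against 4.8% of all genes, and 2 lower, against 5.96%, the median was -0.37, and Ccl25 differed by 1.43. All 9 CC receptors were negative, from -0.07 ± 0.41 (Ccr3) to -1.78 ± 1.10 (Ccr7, which guides lymphocytes and dendritic cells to lymph nodes). Ccr4, a receptor of helper T cells, was lower on all CRC + E171 arrays than on all CRC arrays (-0.98 ± 0.54, adjusted p = 0.666), the 1 member without overlap in that direction, against 2.7% of all genes. In females at 14 days 7 members had an unadjusted p under 0.05, against 12.7% of all genes, among them Ccr2 (-1.89 ± 0.60), Cxcl16 (-1.16 ± 0.39), Ccl25 (1.97 ± 0.53) and Ccl11 (1.38 ± 0.59). The effect differed between the sexes at an unadjusted p under 0.05 for 7 members, against 8.18% of all genes, and for 2 without the array labelled male 2 of CRC whose Xist was at the female level. At 2 days Cxcl2 was well above background on 0 of 4 CRC and 2 of 4 CRC + E171 arrays and was not called. At 21 days the most negative were Ccl19 (-2.72 ± 1.97, adjusted p = 0.906) and Ccr7 (-1.45 ± 1.18, adjusted p = 0.924). The daily effects differed from each other at an unadjusted p under 0.05 in the moderated F test for 5 members (Cxcl2, Cxcl11, Cxcl14, Ccl7 and Xcr1), against 6.52% of all genes, and for 0 after adjustment.

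The time course within each arm was then examined. Within CRC 12 members differed between the days at an unadjusted p under 0.05, against 9.89% of all genes, and within CRC + E171 4 did, against 14.6%. After adjustment 0 passed in either arm (limma, moderated F), as did 0% of all genes. Among the members with the smallest p in CRC were Ccl7 and Cxcl14, each with an adjusted p of 0.492 in limma's moderated F test. In CRC the log2 difference of 21 minus 2 days was -1.68 ± 0.67 for Ccl7 and -2.03 ± 0.82 for Ccl2. For Cxcl10 it was -2.99 ± 1.07 in CRC (adjusted p of the F test 0.492) and -2.80 ± 0.99 in CRC + E171 (adjusted p of the F test 0.331). In CRC + E171 Xcr1 (adjusted p = 0.313) and Ccr8 (adjusted p = 0.319) were among the members with the smallest p. Xcr1 in CRC + E171 was -5.27, -6.82, -5.18 and -4.84 at 2 days, -5.97, -2.95, -4.79 and -5.76 at 7 days, -6.09, -8.06, -5.78 and -5.99 at 14 days, -7.04, -6.53, -7.55 and -6.41 at 21 days, with a log2 difference of 14 minus 7 days of -1.61 ± 0.71. Ccr8 in CRC + E171 was -3.91, -3.68, -4.41 and -3.63 at 2 days, -4.11, -4.86, -4.83 and -4.64 at 7 days, -6.01, -4.62, -5.49 and -4.63 at 14 days, -4.44, -4.52, -5.01 and -3.10 at 21 days, and its lowest days were 7 and 14. Days lay on different slides in each arm, and slide and day cannot be told apart there.

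Since each slide held CRC of 1 day and CRC + E171 of another, the mean E171 effect over 7 and 21 days, and that over 2 and 14 days, could be estimated within slides. For 7 and 21 days 1 member was called higher, against 1.79% of all genes, and 1 lower, against 2.67%. The mean log2 effect was 1.45 ± 0.61 for Ccl28 (adjusted p = 0.508) and -1.36 ± 0.65 for Ccl4 (adjusted p = 0.508). Ccl27a, at -0.40 ± 0.17 (adjusted p = 0.508), stayed under the fold threshold. Over 2 and 14 days 0 members were called higher, against 1.73% of all genes, and 1 lower, against 0.535%. This was Ccl21a, which lines lymphatic vessels and T cell zones, at -0.67 ± 0.28 (adjusted p = 0.909). Ccl21a was 4.28, 4.35, 4.17 and 4.13 at 2 days, 4.26, 5.35, 3.96 and 4.05 at 7 days, 3.86, 3.31, 4.52 and 3.07 at 14 days, 3.85, 3.41 and 5.09 at 21 days in CRC. In CRC + E171 it was 4.24, 3.41, 3.62 and 3.55 at 2 days, 4.40, 5.06, 4.20 and 2.84 at 7 days, 3.07, 3.43, 2.36 and 2.69 at 14 days, 3.63, 4.05, 2.71 and 3.99 at 21 days. Ccr7, its receptor, was at -1.33 ± 0.76 and Ccr2 at -0.62 ± 0.36, each with an adjusted p of 0.909, and neither was called. Leaving out single arrays moved these counts, to between 0 and 12 for 7 and 21 days and between 0 and 5 for 2 and 14 days.

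The lymphoid members had wide ranges inside single groups. These 6 genes were chosen after their values were seen, so their relation to cell markers is given as a description, with no test. Ccl19 and Ccl21a are the ligands of Ccr7, and Cxcl13 and its receptor Cxcr5 gather B cells into follicles, where Ccr6 is also found on B cells. Ccl19 ranged from -6.19 to 1.54 over the 31 arrays, and both ends lay in the same group, CRC 21 days female 1 and female 2. Cxcr5 ranged from -5.54 (CRC 7 days male 1) to 1.29, and in CRC at 7 days alone it was -5.54 and 1.26 in the males and -1.77 and -0.45 in the females. Across the 31 arrays these members moved with a list of 8 B and plasma cell markers, whose array value was the median of the markers after centring each gene. Pearson's r was 0.98 for Cxcr5, 0.97 for Ccr6, 0.82 for Ccr7, 0.80 for Cxcl13, 0.79 for Ccl19 and 0.47 for Ccl21a, and Spearman's rho was 0.99, 0.98, 0.88, 0.86, 0.85 and 0.47. Without the 2 arrays farthest from the median of the list, r was 0.98, 0.96, 0.92, 0.88, 0.90 and 0.59. Within the 3 scan days (12, 12 and 7 arrays) r was 0.97, 0.99 and 0.99 for Cxcr5, 0.98, 0.96 and 0.98 for Ccr6, 0.68, 0.93 and 0.96 for Ccr7, 0.72, 0.78 and 0.96 for Cxcl13, 0.64, 0.84 and 0.93 for Ccl19, and 0.07, 0.68 and 0.81 for Ccl21a. The relation of Ccl21a thus did not hold within the first scan day. The summed level of the B and plasma cell markers ran from 5.58 to 45.9 in CRC and from 27.7 to 46.7 in CRC + E171 at 21 days, and all 8 markers were detected on 30 or 31 arrays.

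**Figure D4:**
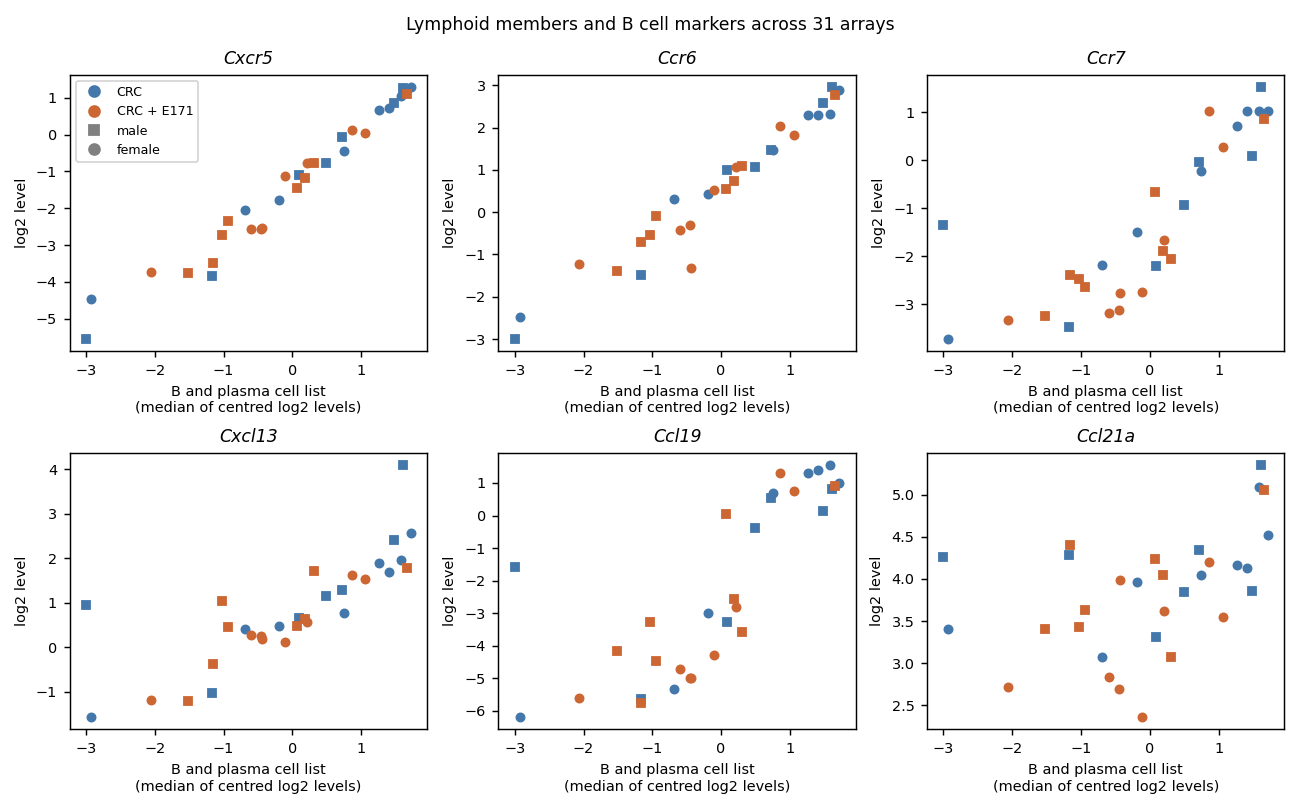
Log2 level of 6 lymphoid members (y axis) against the array value of the B and plasma cell list (x axis, median of centred log2 levels), 1 point per array, coloured by arm and shaped by sex. Cxcr5 and Ccr6 lie near a line (r = 0.98 and 0.97), and Ccl21a scatters most (r = 0.47).

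**Figure D5:**
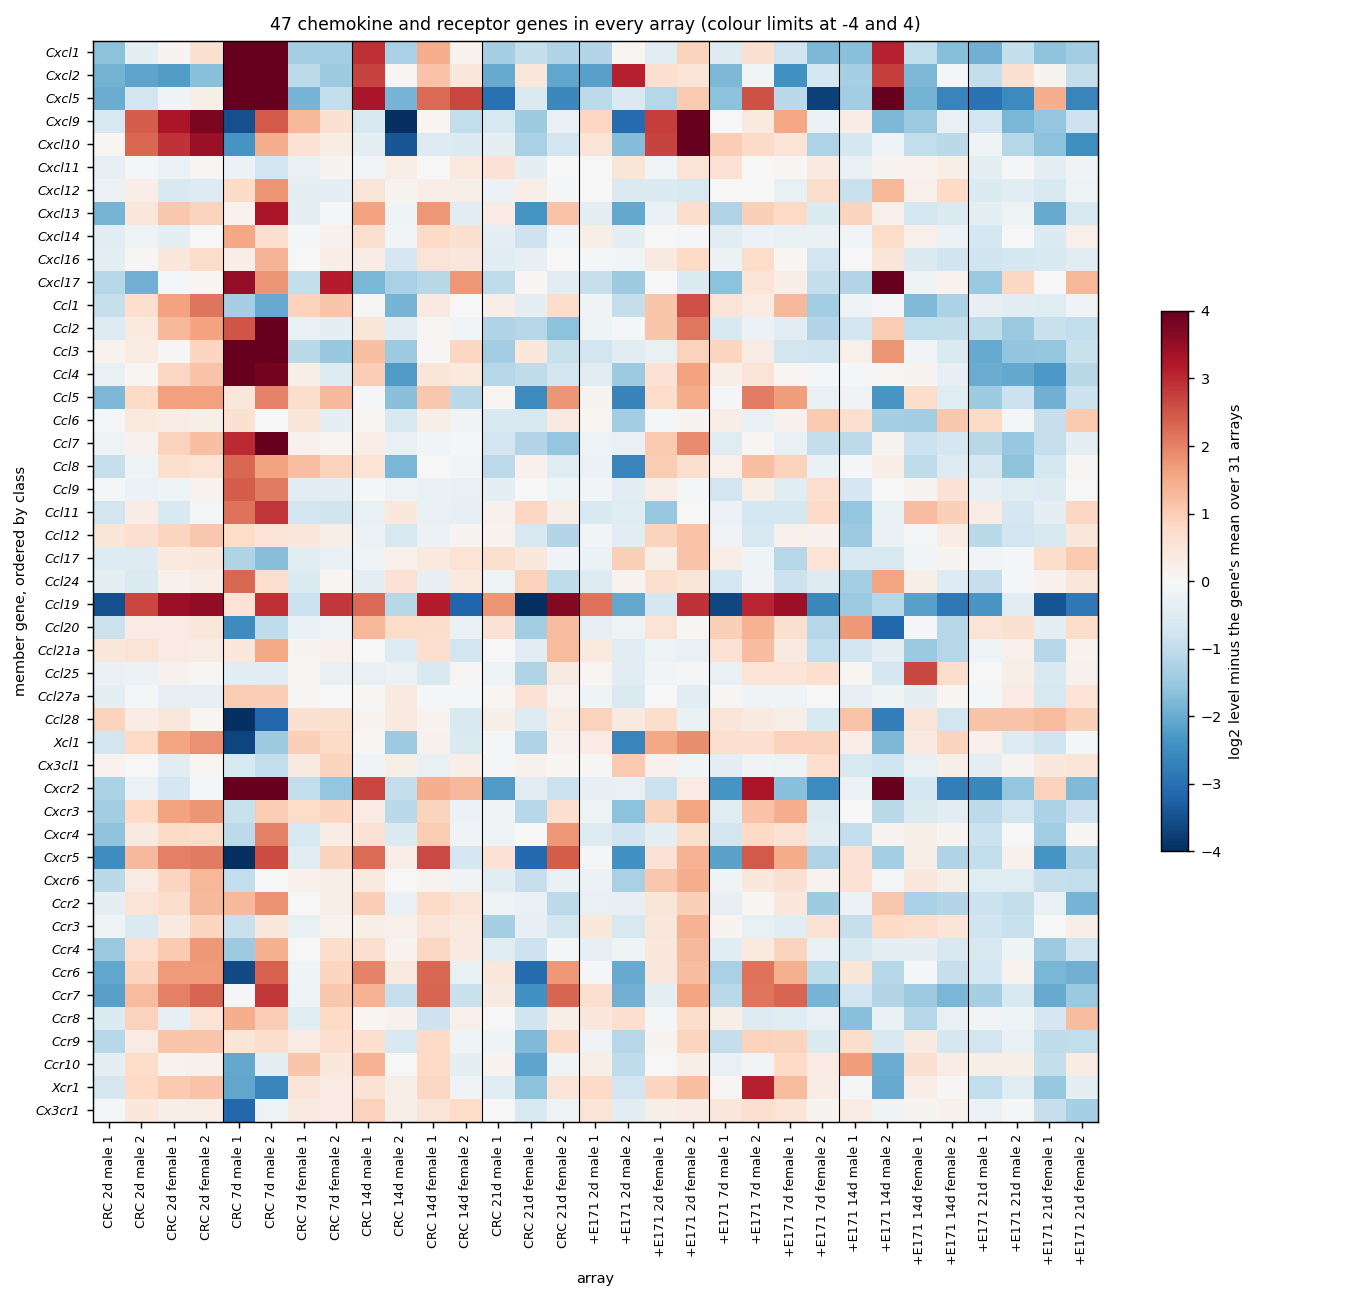
Log2 level of 47 of the 48 members (rows, by class) minus the mean of the gene over 31 arrays, for every array (columns, by group). The CRC 7 days male columns are red for the neutrophil-attracting ligands and for Ccl2, Ccl3, Ccl4, Ccl7, Ccl9 and Ccl11, and blue for Ccl28 and Xcr1.

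Genes around the family were counted in the same fit. Of 10 tested atypical receptors and chemokines with other names 4 were called lower at 7 days, where 5.48% of all genes were. They were the scavenging receptors Ackr1 (-1.51 ± 0.45), Ackr2 (-1.06 ± 0.39) and Ackr3 (-1.58 ± 0.37) and the platelet chemokine Pf4 (-1.09 ± 0.43), with adjusted p-values from 0.197 to 0.225 in limma. Ackr4, which clears Ccl19, Ccl21 and Ccl25, was called higher at 14 days (1.34 ± 0.47, adjusted p = 0.532), and Ackr2 lower at 21 days (-1.04 ± 0.42, adjusted p = 0.854). Of 23 inducers 4 were called lower at 7 days, against 5.48% of all genes, and 2 higher, against 6.93%. The 4 lower were the cytokines Il6 (-4.58 ± 1.66), Il17a (-2.15 ± 0.75), Il17f (-1.65 ± 0.56) and Csf3, with adjusted p-values from 0.197 to 0.207. Csf3, the growth factor of neutrophils, was well above background on 3 of 4 CRC and 0 of 4 CRC + E171 arrays, and CRC was at least 7.78-fold higher. The other 3 were well above background on 3 CRC arrays each and on 2 (Il6) or 1 (Il17a and Il17f) of CRC + E171. The 2 higher were the interferon regulatory factors Irf1 (0.93 ± 0.42, adjusted p = 0.277) and Irf7 (1.23 ± 0.57, adjusted p = 0.282). At 14 days 1 inducer was called higher (Il13), against 3.24% of all genes, and 1 lower (Tnfaip3), against 3.1%, and 0 at 2 and 21 days. Of 20 signalling genes below the receptors 1 was called higher at 7 days (Elmo1), against 6.93% of all genes, and 1 lower at 21 days (Prkcb), against 1.82%, with 0 calls at 2 and 14 days. The 7-day calls of these lists moved with the 2 CRC males too. The summed level of the 10 atypical receptors and chemokines was 84 and 53.4 in these males, against 28.6 and 28.1 in the CRC females and 16.3 to 25.8 in CRC + E171. The centred median of the inducers was 0.40 and 1.23 in the males, against -0.02 and 0.04 in the CRC females and -0.39 to 0.39 in CRC + E171. Without both males 0 genes of the 3 lists were called at 7 days, and Ackr1 was at -0.21 ± 0.33, Ackr2 at -0.36 ± 0.42, Ackr3 at -0.75 ± 0.37, Pf4 at -0.06 ± 0.39, Il6 at -0.04 ± 1.35 and Irf7 at -0.09 ± 0.55 on the log2 scale.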

How the data were processed

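RNA of 31 distal colons, 1 array per animal, was hybridised to 1-colour Agilent arrays. The authors scanned the arrays and extracted spots with Feature Extraction 10.7.3.1, and the deposited intensity per spot is background-subtracted and not normalized between arrays. The authors also deposited log2 values they had filtered and normalized, which served as an alternative. Here log2 processed signals, without outlier spots, were scaled to each array's 75th percentile. A probe was kept when 60% or more of the arrays of at least 1 group were well above background with a mean log2 signal of 4 or more (42787 of 56605 probes), and probes of a gene were averaged (19797 genes). limma 3.58.1 in R 4.3.3 fitted 8 groups with 1 spread. In simulated data of 19741 genes at 7 days it called 71% and 93% of the genes changed by 1 and 2 log2 units and 3.26% of the others. The changed genes were drawn at random from all genes, with an equal spread in every group. Members had a median SE of 0.63 at 7 days, against 0.31 over all genes, so these rates do not apply to them. The members, gene lists and tests were chosen with earlier results of these data known. Members given array by array were those called on at least 1 day, the 3 with the smallest p over days in each arm and within slides, and 1 member is counted but not reported by name here. Ccl3, Cxcl3, Cxcl9, Cxcl10, Cxcr2, Cxcr5 and Xcl1 were given so too, chosen after their values were seen. Alternatives were other scalings, filters, probes, covariates and blocks, and leaving out arrays.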

Additional observations from a re-analysis of the deposited data

Results flagged for a closer look

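Of 147 groups of 4 arrays examined over 21 members, 9 held an array that lay far from the other 3, where chance gives about 1 in 20. CRC + E171 14 days male 2 accounted for 4 of the 9: Cxcl1 stood at 0.34 (others -4.44 to -3.71), Cxcl5 at 3.92 (others -6.09 to -4.87), Ccl2 at 1.46 (others -0.50 to -0.31) and Xcr1 at -8.06 (others -6.09 to -5.78). Cxcl5 was at -2.02 in CRC + E171 21 days female 1 (others -6.42 to -6.01). Ccl25 was at -3.50 in CRC + E171 7 days male 1 (others -2.67 to -2.54). Ccr8 was at -5.16 in CRC 14 days female 1 (others -4.26 to -4.14). Cx3cr1 was at -2.97 in CRC 7 days male 1 (others -0.06 to 0.51). Ccl27a was at -3.80 in CRC 2 days male 2 (others -4.12 to -4.08).

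The E171 effect at 7 days differed between males and females at an adjusted p under 0.05 (limma over 16 groups) for 9 members, 8 more negative in males, against 0.869% of all genes, and 1 more positive, against 2.84%. The 2 CRC males of 7 days had low epithelial and high neutrophil marker sums, and sex and the state of these 2 animals cannot be told apart. The effect in males minus that in females was -7.31 for Cxcl1, -7.70 as measured for Cxcl2 (well above background on 2 of the 8 arrays only), -3.63 for Ccl2, -4.01 for Ccl3, -3.96 for Ccl4, -2.98 for Ccl7, -3.00 for Ccl9, -3.79 for Ccl11 and 5.14 for Ccl28, on the log2 scale.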

How the results depend on the processing

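Calls were few and moved with single settings. The counts of members in this section stand without the share of all genes called under the same setting. They show only how the calls moved and say nothing of the members against other genes. Quantile normalization gave 1 member lower at 14 days and 2 that differed between days in CRC + E171. Normexp gave 2 higher at 14 days, 2 for the mean effect of 2 and 14 days, and 2 between days in CRC + E171. The authors' values gave 1 lower at 14 days, 1 lower at 21 days and 4 for the mean effect of 7 and 21 days, as did leaving out the slide term (4). The brightest probe gave 1 higher at 7 days and 0 at 14 days. Only the 2 groups compared gave 1 higher at 2 days, 1 higher and 6 lower at 7 days, 0 higher and 3 lower at 14 days, and 1 higher and 1 lower at 21 days. Array weights gave 1 lower at 2 days, 0 higher and 1 lower at 7 days, 9 lower at 14 days and 1 higher at 21 days. A log2 fold change of 1.5 left 2 higher and 7 lower at 7 days and 0 higher at 14 days, and an adjusted p under 0.05 left 0, 0 and 0. The cause was not tested.

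Other alternatives were chosen after seeing the data. With scan day as a covariate 7 members were lower at 7 days and 1 at 21 days, and 10 of the 18 called pairs of member and day kept their call. Within the scan day that both groups share it was 2 higher and 3 lower at 7 days, 5 lower at 14 days, 1 lower at 21 days, and 4 of 18 pairs. Without both CRC males of 7 days 0 were higher and 0 lower, and 5 signs turned: Cxcl1 0.73, Cxcl5 0.42, Ccl4 0.36, Ccl9 0.36 and Ccl28 -0.50. Without both CRC + E171 females of 14 days 0 were higher and Ccl25 was at -0.02.

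Leaving out 1 array at a time gave 0 to 2 members higher at 2 days, 1 to 7 higher and 3 to 17 lower at 7 days, 0 to 2 higher and 0 to 2 lower at 14 days, and 0 to 3 lower at 21 days. The count of 3 at 21 days was that without CRC 21 days female 1, whose squamous marker sum was 240. The lowest counts at 7 days were those without CRC male 1, the highest higher count that without CRC female 2 and the highest lower count that without CRC female 1. The mean effect gave 0 to 12 calls for 7 and 21 days and 0 to 5 for 2 and 14 days, days within CRC 8 to 21, and days within CRC + E171 1 to 9. Without the array labelled CRC 14 days male 2, the sexes differed at 14 days for 2 members. In all, 87 of 144 such fits of a called pair kept the call and 0 turned its sign.

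The labels do not say that a replicate number pairs animals. Of 15 same-numbered pairs 8 deviated together with r over 0.1 (-0.182 to 0.479), 3 of 4 at 2 days, 2 of 4 at 7 days, 0 of 4 at 14 days and 3 of 3 at 21 days. With the replicate block 1 member was lower at 14 days, 1 was called for the mean effect of 7 and 21 days, and 18 of 18 called pairs kept their call. With slide as a random block (correlation 0.005) 17 of 18 did.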
